A study of Mus musculus with 6 samples.

Results

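Notch signalling was described in fetal mouse ovaries by 10 genes of the pathway: the ligands *Jag1* and *Jag2*, the receptors *Notch1*, *Notch2* and *Notch3*, the receptor-modifying enzyme *Lfng*, and the target genes *Hes1*, *Hey1*, *Hey2* and *Heyl*. They were chosen by gene name, and all 10 were found among the 54532 genes of the expression table. Whole ovaries of C57BL/6 mice at 16.5 days post-coitus (dpc) were sequenced after poly-T selection of mRNA, in 3 control (Ctrl) and 3 conditional knockout (cKO) libraries. The cKO mice were *Stra8-GFPCre Srsf1* Fl/Fl, in which Cre under *Stra8*, a gene switched on in germ cells as they enter meiosis, removes exons of the splicing factor gene *Srsf1*. The labels call the Ctrl mice wild type. Because Cre acts in germ cells only, the somatic cells of a cKO ovary keep *Srsf1*, and each library mixes RNA of both. How many ovaries made up a library is not stated in the sources. The question was whether RNA of the ligands, receptors and targets differs between cKO and Ctrl ovaries before germ-cell cysts break down.

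In Notch signalling, a ligand on the surface of a cell binds a receptor on its neighbour, the receptor is cut, and its freed intracellular part joins the DNA-binding protein RBPJ to switch on Hes and Hey genes, which encode transcriptional repressors. In the mouse ovary, oocytes lie in cysts until around birth, when pregranulosa cells enter between them and form primordial follicles. JAG1 on oocytes and NOTCH2 on pregranulosa cells are the best known pair in this step, and blocking Notch signalling leaves more oocytes in cysts. At 16.5 dpc, most oocytes are still in cysts and in meiotic prophase, so the libraries precede that step.

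RBPJ is known to bind the sequence GTGGGAA. RefSeq promoters (GRCm38.p6, 250 bases before to 50 bases after the start of a gene) were found for 7 of the 10 genes and not for *Hes1*, *Hey1* and *Heyl*. The *Notch1* window (chromosome 2, 26503773 to 26504072) lay inside the gene as given in the expression table. That gene begins at 26516663 on the minus strand, and the bases around that start were not searched. On either strand, the motif occurred in 2 of the 7, in the target gene *Hey2* and in *Lfng*. It occurred in 6.38% of all 32851 promoters of that length, and 0.256% held it 2 or more times, as *Hey2* did. The 2 sequences with the motif are shown from 250 bases before the start to 10 bases after it, 5′ to 3′ in the direction of the gene, with the motif, or its reverse complement TTCCCAC, in capitals. *Hey2* lies on the minus strand (chr10:30842774-30843033), and its copies begin 207 bases before the start, on the opposite strand, and 4 bases before it, on the strand of the gene. *Lfng* lies on the plus strand (chr5:140607091-140607350), and its copy begins 109 bases before the start. A match is a description of these letters, not a sign of binding.
Hey2: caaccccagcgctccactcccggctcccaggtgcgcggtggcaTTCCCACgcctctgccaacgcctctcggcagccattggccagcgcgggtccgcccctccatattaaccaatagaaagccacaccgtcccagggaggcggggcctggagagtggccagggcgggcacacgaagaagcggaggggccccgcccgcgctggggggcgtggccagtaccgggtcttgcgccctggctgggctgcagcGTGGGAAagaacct
Lfng: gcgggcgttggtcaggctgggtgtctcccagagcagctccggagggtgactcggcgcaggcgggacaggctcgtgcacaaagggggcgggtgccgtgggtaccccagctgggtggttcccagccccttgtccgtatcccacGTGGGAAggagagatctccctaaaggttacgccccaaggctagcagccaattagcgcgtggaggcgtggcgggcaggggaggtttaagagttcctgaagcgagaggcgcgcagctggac

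*Srsf1*, the targeted gene, was lower in cKO ovaries. Its level was 80.2, 70.1 and 63.1 FPKM (reads on a gene, divided by its length and the size of the library) in Ctrl 1, 2 and 3 and 32.4, 37.0 and 36.4 FPKM in cKO 1, 2 and 3. Its log2 fold change was -0.99 with a standard error of 0.13. Fold changes here are cKO over Ctrl on the log2(FPKM + 1) scale, tested with limma (two-sided) over the 17180 genes with a mean of at least 0.5 FPKM, and they understate the change of genes with low values. The libraries held between 14212164 and 16784241 reads on genes. In the fit of all genes, 4.43% had an unadjusted p below 0.05, the limit used in the study, 2.68% higher and 1.75% lower in cKO. None passed a Benjamini-Hochberg adjusted p below 0.05, where limma gave 0.392 as the smallest, and voom on the recovered reads also called 0. Without Ctrl 1, 4 genes of the whole table passed it (smallest adjusted p 0.00129 in limma), none of them among the 10 Notch genes, and with any other library left out 0 did.

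Of the 10 Notch genes, 0 passed the unadjusted limit, against 4.43% of all genes tested, and the groups overlapped for each of them, while they did not overlap for 8.68% of all genes tested, 4.10% lower and 4.59% higher in cKO. The log2 fold changes lay between -0.25 and 0.011, with a median of -0.094, and 8 of the 10 were below 0. Over all genes tested, the median was -0.0091 and 52.1% were below 0. Every 95% interval of the 10 genes lay within 1 on either side of 0, and 5 of the 10 lay within 0.5. The data thus allow changes of these sizes on the FPKM + 1 scale, and larger ones in FPKM itself for genes with low values. *Hey2*, with a mean of 0.654 FPKM, is among those 5, so its interval does not bound its FPKM that closely. The data do not show that the levels were equal. The smallest unadjusted p of the 10 was 0.18 and their adjusted p values lay between 0.978 and 0.999 (limma).

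**Figure D1:**
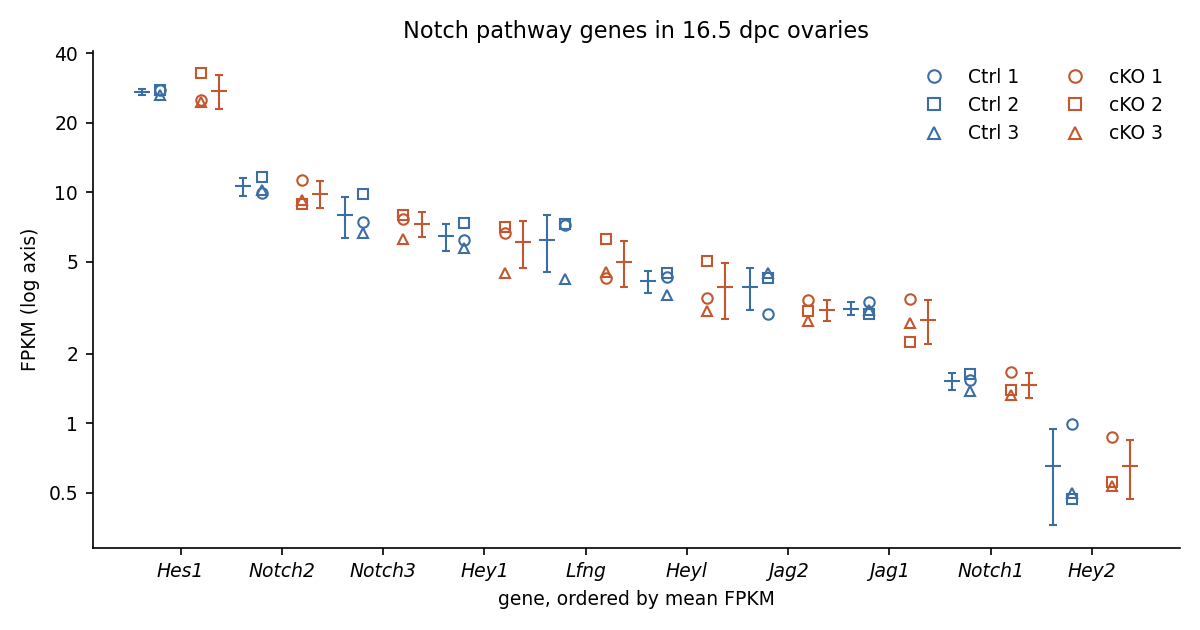
Level of the 10 Notch genes in FPKM (log axis) in each library, with Ctrl in blue and cKO in red, a marker shape for each replicate, and the mean with its SD (n = 3) beside the points. Genes run from *Hes1*, with a mean of 27.3 FPKM, to *Hey2*, with 0.654 FPKM, and the points of both groups overlap for every gene.

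*Jag1* (ENSMUSG00000027276), the ligand known from oocytes of the fetal and newborn ovary, lies on the minus strand of chromosome 2 of GRCm38, from 137081456 to 137116644. Its level was 3.35, 2.96 and 3.08 FPKM in Ctrl 1, 2 and 3 and 3.45, 2.25 and 2.72 FPKM in cKO 1, 2 and 3. cKO 1 was the highest of the 6 libraries and cKO 2 the lowest, so the spread within cKO took in the whole of Ctrl. The mean was 3.13 ± 0.20 FPKM (SD, n = 3) in Ctrl and 2.81 ± 0.61 FPKM (SD, n = 3) in cKO. The log2 fold change of -0.13 had a standard error of 0.16, a 95% interval of -0.50 to 0.24 and an unadjusted p of 0.436 in limma. An exact permutation test (two-sided) gave p = 0.5, where 3 libraries against 3 cannot go below 0.1. Each value rested on 220 to 314 reads, and 34.0% of the genes tested had a lower mean level. Splicing of *Jag1* was not analysed here, since FPKM per gene holds no reads by exon junction.

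*Jag2* (ENSMUSG00000002799; chromosome 12, 112907819 to 112929776, minus strand), the other ligand of the Jagged family, stood at 2.97, 4.26 and 4.46 FPKM in Ctrl 1, 2 and 3 and at 3.43, 3.07 and 2.77 FPKM in cKO 1, 2 and 3. Ctrl 2 and Ctrl 3 were above all cKO libraries, while Ctrl 1 was below cKO 1 and cKO 2. The log2 fold change was -0.25 (SE 0.17, 95% interval -0.64 to 0.15, unadjusted p = 0.18 in limma, exact permutation p = 0.3). Without Ctrl 1 it was -0.39 with an unadjusted p of 0.042 and an adjusted p of 1.0 in limma, so this gene's side of the unadjusted limit rested on that library.

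Among the 5 canonical ligand genes, *Jag1* held 22.4% to 32.5% and *Jag2* 28.8% to 39.1% of the summed FPKM of a library, a sum of 9.56 to 11.4 FPKM. *Dll4*, a ligand best known from endothelial cells, held 14.5% to 24.7%, *Dll1* held 9.01% to 18.3%, and *Dll3*, which is known to act inside the cell, held 3.63% to 8.79%. *Jag1* stood above *Jag2* in Ctrl 1 and, narrowly, in cKO 1, with ratios of 1.13 and 1.01, and below it in the other libraries, down to a ratio of 0.691 in Ctrl 3. Neither Jagged ligand therefore led in all libraries of either group.

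**Figure D2:**
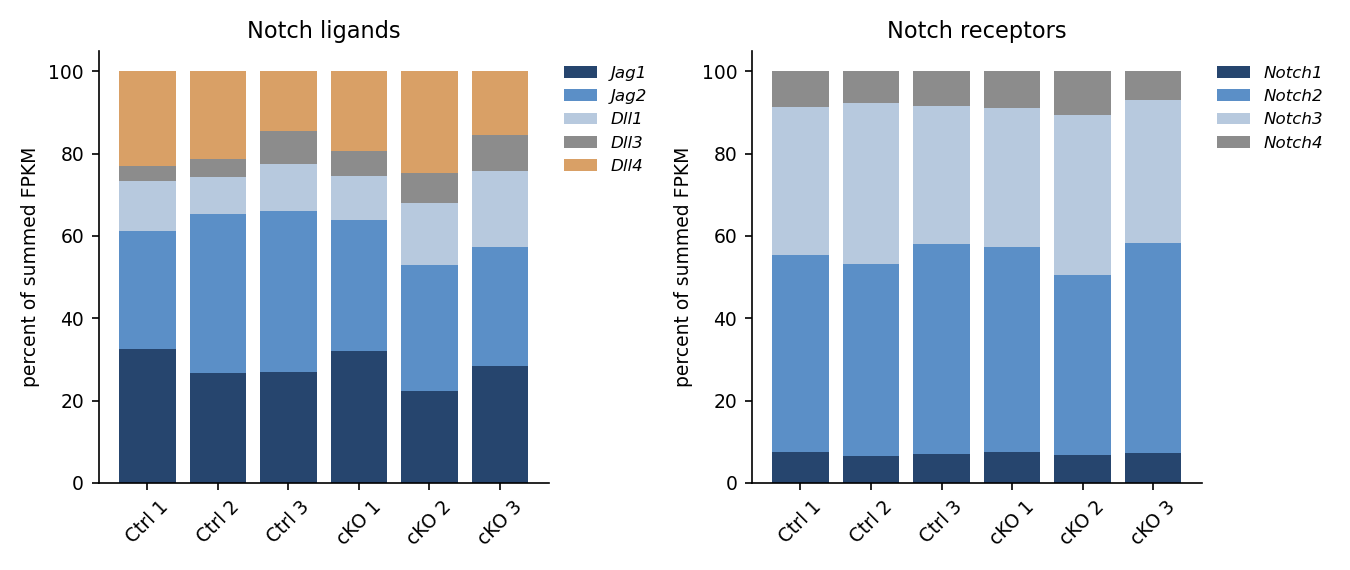
Share of each Notch ligand gene (left) and receptor gene (right) in the summed FPKM of its class, as stacked bars in percent for each of the 6 libraries. *Jag1* and *Jag2* together filled most of each ligand bar, and *Notch2* was the broadest part of every receptor bar, with 43.6% to 51.1%.

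*Notch2* (ENSMUSG00000027878; chromosome 3, 98013527 to 98150361, plus strand), the receptor known from pregranulosa cells, was the highest of the receptors in every library. It stood at 9.89, 11.7 and 10.2 FPKM in Ctrl 1, 2 and 3 and at 11.3, 8.89 and 9.28 FPKM in cKO 1, 2 and 3. cKO 1 lay within the Ctrl range, and cKO 2 and cKO 3 lay below it. The mean was 10.6 ± 0.96 FPKM (SD, n = 3) in Ctrl and 9.83 ± 1.31 FPKM (SD, n = 3) in cKO, with a log2 fold change of -0.10 (SE 0.14, 95% interval -0.42 to 0.22, unadjusted p = 0.481 in limma, exact permutation p = 0.4). With 1420 to 2039 reads per library, *Notch2* had the least counting error of the 10 genes, 2.39% of its level in a library, less than the coefficient of variation of 9.05% in Ctrl and 13.3% in cKO.

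*Notch3* (ENSMUSG00000038146; chromosome 17, 32120820 to 32166880, minus strand), known for its role in pericytes and vascular smooth muscle, stood at 7.43, 9.77 and 6.68 FPKM in Ctrl 1, 2 and 3 and at 7.65, 7.93 and 6.29 FPKM in cKO 1, 2 and 3. The highest value, in Ctrl 2, stood apart from the rest, and leaving out that library turned the log2 fold change from -0.10 (SE 0.17) to 0.037. *Notch1* (ENSMUSG00000026923; chromosome 2, 26457903 to 26516663, minus strand) was the lowest of the 3 receptors, at 1.54, 1.64 and 1.38 FPKM in Ctrl 1, 2 and 3 and at 1.67, 1.40 and 1.33 FPKM in cKO 1, 2 and 3. Its log2 fold change was -0.033 (SE 0.14, 95% interval -0.36 to 0.30). Genes on the opposite strand overlap *Notch1* (*0610009E02Rik* and *Gm13568*) and *Notch3* (*Gm17276*), and the sources do not say whether reads were counted by strand. The overlapping genes of all members stood at 1.05 FPKM or less in each library.

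With *Notch4*, an endothelial receptor, as the fourth gene of the class, *Notch2* held 43.6% to 51.1% of receptor FPKM, *Notch3* 33.5% to 39.1%, *Notch4* 7.07% to 10.6% and *Notch1* 6.54% to 7.46%. The ratio of *Notch2* to *Notch1* stayed between 6.35 and 7.39 in the 6 libraries, and that of *Notch2* to *Notch3* between 1.12 and 1.53. The order of the 3 receptors was thus the same in all 6 libraries.

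*Lfng* (ENSMUSG00000029570; chromosome 5, 140607320 to 140615545, plus strand) encodes Lunatic fringe, a sugar transferase that acts on Notch receptors and tunes which ligands they answer. It stood at 7.19, 7.30 and 4.23 FPKM in Ctrl 1, 2 and 3 and at 4.23, 6.28 and 4.50 FPKM in cKO 1, 2 and 3. The values fell into a higher level in Ctrl 1, Ctrl 2 and cKO 2 and a lower level in Ctrl 3, cKO 1 and cKO 3, which cut across the groups. The log2 fold change was -0.25 (SE 0.23, 95% interval -0.80 to 0.29, unadjusted p = 0.305 in limma, exact permutation p = 0.4), with the widest interval of the 10 genes. Without Ctrl 3 it was -0.47 with an unadjusted p of 0.048 and an adjusted p of 0.729 in limma. *Lfng* is the motif-bearing gene on chromosome 5 shown above. Its relatives *Rfng* and *Mfng* were read at 9.56 to 14.8 FPKM and 2.65 to 4.07 FPKM, and *Lfng* was above *Mfng* and below *Rfng* in each library.

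*Hes1* (ENSMUSG00000022528; chromosome 16, 30064384 to 30067796, plus strand), a repressor that many signals besides Notch can switch on, was the highest of the 10 genes. It stood at 27.7, 27.6 and 26.3 FPKM in Ctrl 1, 2 and 3 and at 25.1, 32.7 and 24.5 FPKM in cKO 1, 2 and 3. The 3 Ctrl libraries were close together, with a coefficient of variation of 2.88%, near the counting error of 3.36%, while cKO 2 lay above and the other cKO libraries below all of them. The log2 fold change was 0.0016 (SE 0.14, 95% interval -0.33 to 0.33). It changed sign without cKO 2 (-0.13, unadjusted p = 0.220 in limma), without Ctrl 3 (-0.022) and under quantile normalization (-0.015).

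*Hey1* (ENSMUSG00000040289; chromosome 3, 8663359 to 8667256, minus strand) stood at 6.19, 7.38 and 5.73 FPKM in Ctrl 1, 2 and 3 and at 6.66, 7.10 and 4.49 FPKM in cKO 1, 2 and 3, where cKO 3 alone was below the Ctrl range. *Heyl* (ENSMUSG00000032744; chromosome 4, 123233556 to 123249875, plus strand) stood at 4.28, 4.45 and 3.59 FPKM in Ctrl 1, 2 and 3 and at 3.49, 5.06 and 3.06 FPKM in cKO 1, 2 and 3, with cKO 2 above and the other cKO libraries below Ctrl, as for *Hes1*. The log2 fold changes were -0.084 (SE 0.18, 95% interval -0.52 to 0.36) for *Hey1* and -0.086 (SE 0.18, 95% interval -0.52 to 0.35) for *Heyl*. Both genes encode repressors of the Hey family, known from blood vessels among other tissues.

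*Hey2* (ENSMUSG00000019789; chromosome 10, 30832359 to 30842801, minus strand), whose promoter holds the motif 2 times, was close to the 0.5 FPKM limit of the test. It stood at 0.987, 0.471 and 0.499 FPKM in Ctrl 1, 2 and 3 and at 0.873, 0.558 and 0.537 FPKM in cKO 1, 2 and 3. The highest library of each group, Ctrl 1 and cKO 1, was well above the other two. Between 35 and 68 reads stood behind a value, a counting error of 14.6%, against a coefficient of variation of 44.5% in Ctrl and 28.7% in cKO. The log2 fold change was 0.011 (SE 0.19, 95% interval -0.44 to 0.46). *Hes1* held 69.2% to 75.2% of the summed FPKM of the 4 target genes, *Hey1* 13.8% to 18.5%, *Heyl* 9.37% to 11.1% and *Hey2* 1.18% to 2.52%.

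FPKM is a level per gene length, so the 10 genes can be put in order. By the mean of the 6 libraries, *Hes1* (27.3 FPKM) came first, then *Notch2* (10.2), *Notch3* (7.63), *Hey1* (6.26), *Lfng* (5.62), *Heyl* (3.99), *Jag2* (3.49), *Jag1* (2.97), *Notch1* (1.49) and *Hey2* (0.654). Of the neighbours in this order, *Hey1* was above *Lfng* in 4 of 6 libraries, *Heyl* above *Jag2* in 5 of 6 and *Jag2* above *Jag1* in 4 of 6, so those pairs did not differ beyond their spread. The other neighbours kept their order in 6 of 6 libraries, but *Notch2* and *Notch3*, *Notch3* and *Hey1*, and *Lfng* and *Heyl* had ranges that overlapped between libraries. *Notch2* and *Notch3* stood above both Jagged ligands in every library.

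**Figure D3:**
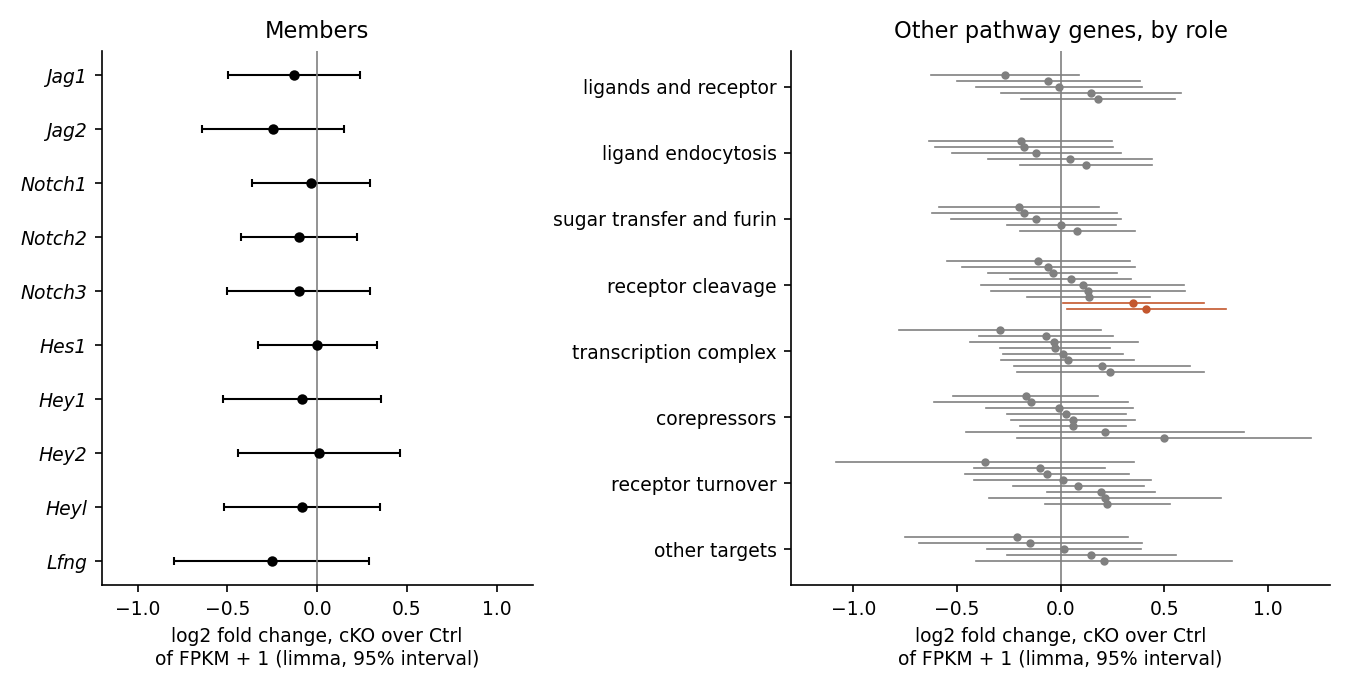
Log2 fold change (cKO over Ctrl, FPKM + 1) with its 95% interval from limma for the 10 Notch genes (left) and for 53 other genes of the pathway grouped by role (right), with genes at an unadjusted p below 0.05 in red. All 10 intervals on the left cross 0, and the 2 red genes on the right are *Aph1b* and *Aph1c*.

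The rest of the pathway was read from a list of 55 genes in 8 roles, of which 53 passed the 0.5 FPKM limit. At an unadjusted p below 0.05, 2 were higher and 0 lower in cKO (2.68% and 1.75% of all genes tested), and 0 passed the adjusted limit. The median log2 fold change was 0.011, 29 were above 0 and 24 below. The groups did not overlap for 3 of the 53, *Aph1b*, *Aph1c* and *Numb*, against 8.68% of all genes.

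The 2 genes past the unadjusted limit encode versions of APH1, a subunit of gamma-secretase, the protease that frees the intracellular part of the receptor. *Aph1b* stood at 4.56, 4.09 and 4.87 FPKM in Ctrl 1, 2 and 3 and at 5.72, 5.54 and 7.95 FPKM in cKO 1, 2 and 3, a log2 fold change of 0.42 (SE 0.16, unadjusted p = 0.037 and adjusted p = 0.978 in limma). *Aph1c* stood at 1.45, 1.26 and 1.56 FPKM in Ctrl 1, 2 and 3 and at 2.16, 1.79 and 2.34 FPKM in cKO 1, 2 and 3, a log2 fold change of 0.35 (SE 0.14, unadjusted p = 0.044 and adjusted p = 0.978 in limma). All cKO libraries were above all Ctrl libraries for both (exact permutation p = 0.1, the smallest possible). They are near-identical neighbours, so how counting split their reads is uncertain. *Aph1c* also overlaps the opposite-strand gene *Gm17098*, which was read at up to 2.18 FPKM, a level like that of *Aph1c* itself. Whether reads of *Gm17098* were counted for *Aph1c* is not known. The related *Aph1a*, the highest of the 3 in each library, was read at 14.0 to 22.1 FPKM with a log2 fold change of -0.11. With the germ-cell marker level described below as a covariate, chosen after seeing the data, the changes were 0.33 (unadjusted p = 0.094 in limma) and 0.29 (unadjusted p = 0.108), and without Ctrl 1, Ctrl 2, Ctrl 3 or cKO 3 neither passed.

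In the other roles no gene passed the limit, and the highest and the lowest gene of each role were taken by the mean of the 6 libraries. Of the remaining ligands and receptors, *Dlk1*, an atypical ligand of stromal and fetal cells, was highest at 60.4 to 94.6 FPKM, and *Dlk2* lowest at 0.029 to 0.275 FPKM, too low to be tested. Of the enzymes that take ligands into the cell, *Mib1*, a ubiquitin ligase needed for ligand activity, was highest by the mean, at 16.9 to 21.6 FPKM. *Mib2*, at 13.8 to 23.5 FPKM, was close to it and stood above it in Ctrl 1, Ctrl 2, Ctrl 3 and cKO 2. The lowest was *Neurl3*, at 0.890 to 1.498 FPKM. Among sugar transferases and furin, *Rfng* was highest and *Mfng* lowest, with the values given beside *Lfng*, but *Rfng* was below *Poglut1* and *Pofut1* in cKO 1 and cKO 3.

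Of the genes that cut receptors, *Adam10*, the protease of the first cut, was highest at 49.6 to 80.3 FPKM and *Aph1c* lowest. In the nuclear complex, *Rbpj* stood at 8.13, 6.78 and 8.86 FPKM in Ctrl 1, 2 and 3 and at 10.2, 7.21 and 11.5 FPKM in cKO 1, 2 and 3, a log2 fold change of 0.24 (SE 0.19, unadjusted p = 0.246 in limma, exact permutation p = 0.3). The highest of that role by the mean was the acetyltransferase gene *Ep300*, at 9.57 to 15.3 FPKM, although the coactivator gene *Maml1* was above it in Ctrl 1, Ctrl 3 and cKO 2, and the lowest *Maml2*, another coactivator, at 1.59 to 1.94 FPKM. The highest corepressor gene was *Ctbp1*, at 48.4 to 70.4 FPKM, and the lowest *Spen*, at 5.78 to 7.37 FPKM.

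Of the genes that turn receptors over, *Dtx3*, of the Deltex family of ubiquitin ligases, was highest at 59.0 to 81.2 FPKM and *Dtx4* lowest at 3.18 to 4.14 FPKM. *Numb*, an inhibitor of Notch receptors, stood at 33.8, 34.4 and 30.7 FPKM in Ctrl 1, 2 and 3 and at 38.0, 36.0 and 39.7 FPKM in cKO 1, 2 and 3, with no overlap but a log2 fold change of 0.20 (SE 0.11) that missed the limit (unadjusted p = 0.117 in limma, exact permutation p = 0.1). Among other target and related genes, *Hes6*, a Hes relative, was highest at 11.0 to 15.4 FPKM. *Hes5*, a classical Notch target of neural tissue, was lowest by the mean, at 0 to 0.587 FPKM, and was not tested.

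Marker lists were read in the same libraries, each as the mean log2(FPKM + 1) of its genes. Fewer cells of a type and less RNA per cell cannot be told apart in whole ovaries. The 10 germ-cell markers, *Ddx4*, *Dazl* and *Sycp3* among them, stood at 3.16, 4.11 and 4.92 in Ctrl 1, 2 and 3 and at 5.09, 3.93 and 5.26 in cKO 1, 2 and 3, with summed levels of 113 to 427 FPKM in Ctrl and 208 to 629 FPKM in cKO. All 10 were above 0 in each library, and 1 of them, *Dazl*, was called higher in cKO. The 10 pregranulosa markers, *Foxl2*, *Amhr2* and *Kitl* among them, varied less, between 5.73 and 5.94 in Ctrl and 5.70 and 6.15 in cKO. Their summed levels were 610 to 743 FPKM in Ctrl and 598 to 856 FPKM in cKO, and 0 of them were called. The 10 endothelial markers stood at 3.24 to 3.54 in Ctrl and 3.22 to 3.55 in cKO, with summed levels of 97.6 to 122 FPKM and 94.6 to 125 FPKM and 0 called. Of the 8 retina markers, looked at because the protocol text of the labels names retina while the tissue label and the study name ovary, *Crx* was at 0 in every library, 1 passed the 0.5 FPKM limit and the summed level was 0.991 to 2.26 FPKM.

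The members were set beside these levels library by library. *Lfng* was at 6.28 to 7.30 FPKM in the 3 libraries with the lowest germ-cell levels (Ctrl 1, cKO 2 and Ctrl 2) and at 4.23 to 4.50 FPKM in the 3 with the highest (Ctrl 3, cKO 1 and cKO 3). *Hes1* was at 27.6 to 32.7 FPKM in the former and at 24.5 to 26.3 FPKM in the latter, and *Heyl* at 4.28 to 5.06 FPKM and 3.06 to 3.59 FPKM. The pregranulosa and endothelial lists moved with these genes as well. The pregranulosa level stood at 5.94, 5.89 and 5.73 in Ctrl 1, 2 and 3 and at 5.70, 6.15 and 5.82 in cKO 1, 2 and 3. The endothelial level stood at 3.54, 3.44 and 3.24 in Ctrl 1, 2 and 3 and at 3.35, 3.55 and 3.22 in cKO 1, 2 and 3. Ctrl 1, Ctrl 2 and cKO 2 were the highest of the 6 libraries in both lists, and cKO 2, the highest in both, was also the highest library for *Hes1* and *Heyl*. The split was not particular to these lists. The same libraries were highest for macrophage markers, with Ctrl 2 narrowly above Ctrl 3 (2.372 against 2.366), and for mesonephros and duct epithelium markers. They were not for pericyte, stroma, red blood cell and steroid-producing cell markers. *Jag1*, known from oocytes, had its lowest value in cKO 2, which had a low germ-cell level, but stood at 3.35 FPKM in Ctrl 1, whose germ-cell level was the lowest of all. The part of any of these cell types in the levels of *Lfng*, *Hes1* and *Heyl* was not tested, and the labels name no batch within which it could be looked at.

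**Figure D4:**
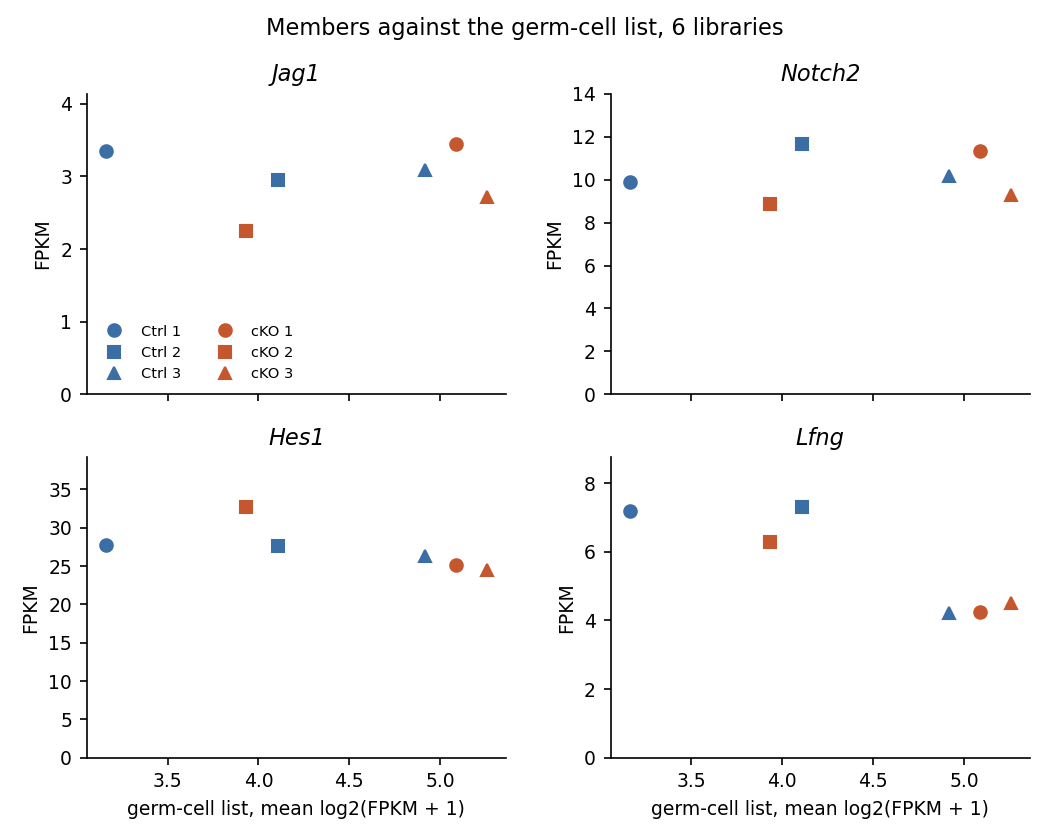
FPKM of *Jag1*, *Notch2*, *Hes1* and *Lfng* (vertical axes, from 0) against the mean log2(FPKM + 1) of 10 germ-cell markers (horizontal axis), with a point for each of the 6 libraries, Ctrl in blue and cKO in red. *Lfng* and *Hes1* are lower in the 3 libraries on the right, cKO 1, cKO 3 and Ctrl 3, and *Jag1* is at 3.35 FPKM in Ctrl 1 on the far left and at 3.45 FPKM in cKO 1 on the right.

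With the germ-cell level as a covariate, a fit chosen after seeing the data, 0 of the 10 Notch genes passed the unadjusted limit, against 5.83% of all genes, and their log2 fold changes lay between -0.36 and 0.10. That of *Lfng* was -0.0085, that of *Jag1* -0.17 and that of *Jag2* -0.36 (unadjusted p = 0.075, adjusted p = 0.9 in limma). Cre acts in germ cells, and the germ-cell markers themselves had a median log2 fold change of 0.62. The covariate may therefore take up part of a difference by genotype, which was not tested. Without Ctrl 1 and cKO 2, the libraries with the lowest germ-cell level in each group, 0 of the 10 passed, against 11.9% of all genes, and the changes lay between -0.39 and 0.19. There *Jag2* was at -0.39 (unadjusted p = 0.055, adjusted p = 0.425 in limma), *Jag1* at 0.017 and *Lfng* at -0.30.

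By library, cKO 3 was below the mean of the 6 libraries for 10 of the 10 Notch genes, on the log2(FPKM + 1) scale, and was the lowest library for 6 of them. It was also below the mean for the pregranulosa, endothelial, pericyte, stroma and macrophage lists. Its germ-cell level was the highest and its 14212164 reads on genes were the fewest of the 6, and the part of any of these was not tested. Ctrl 2 was the highest library for 4 of the 10. The share of all genes tested that behaved so in cKO 3 or Ctrl 2 was not counted. These counts are thus not shown to be particular to the Notch genes. Without cKO 3, the 10 log2 fold changes had a median of -0.0029 in place of -0.094, and 5 of 10 were below 0 in place of 8. Without Ctrl 2 the median was -0.036 and 6 of 10 were below 0. Below 0 were 8 of 10 without Ctrl 1, 10 of 10 without Ctrl 3, and 9 of 10 without cKO 1 or without cKO 2. The lean below 0 thus depended on which library was left out. The share of all genes below 0 in these fits was not counted.

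**Figure D5:**
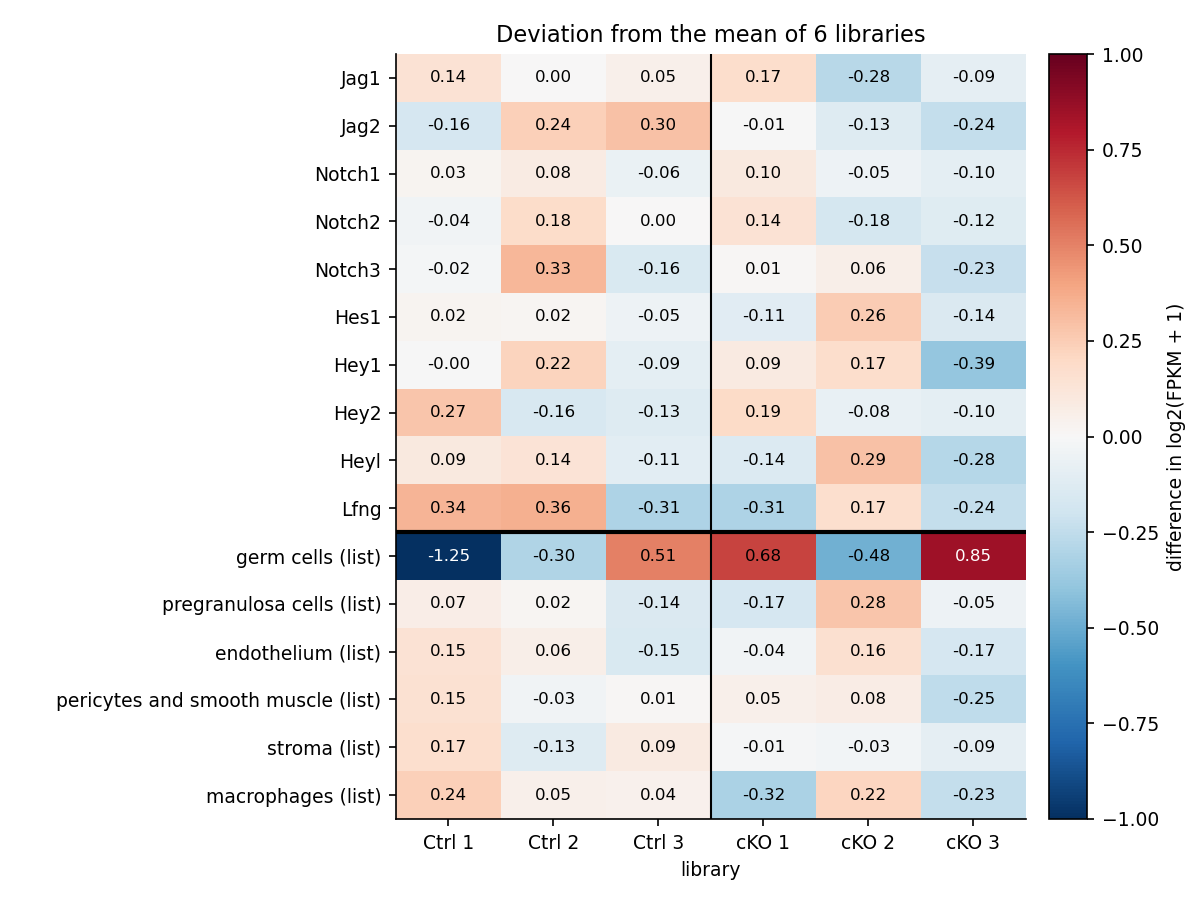
Log2(FPKM + 1) of the 10 Notch genes (upper rows) and of 6 marker lists (lower rows) in each library, as the difference from the mean of the 6 libraries, with red above and blue below it and colours ending at -1 and 1. *Notch3* is also 1 of the genes of the pericyte list. The cKO 3 column is below 0 for each Notch gene and for every list but the germ cells. The germ-cell row runs from -1.25 in Ctrl 1 to 0.85 in cKO 3.

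Genes whose level followed *Jag1* or *Notch2* most closely were named by Pearson's r of log2(FPKM + 1) over the 6 libraries, as a description without a test. For *Jag1* these were *Gm48037* (r = 0.987, Spearman's rho = 1.0), *Gm20568* (r = 0.985, rho = 0.943) and *G530011O06Rik* (r = 0.982, rho = 0.943), and 52 of the 17179 other genes tested had r over 0.9. For *Notch2* they were *Traip* (r = 0.980, rho = 1.0), *Gm28119* (r = 0.979, rho = 0.943) and *Mir709* (r = 0.977, rho = 0.870), with 82 genes over 0.9. Some of these levels were low. *Mir709* stood at 0 FPKM in cKO 2 and cKO 3 and at 0.650 to 2.20 FPKM in the other libraries, and *G530011O06Rik* at 0.551 to 1.11 FPKM. The 6 points share their libraries and depth.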

How the data were processed

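The authors sequenced paired-end reads of whole ovaries, aligned them to GRCm38 (mm10) with HISAT2 2.0.5, ran featureCounts on the alignments and deposited FPKM, that is, reads scaled by gene length and library size. Their own limit for changed genes was an unadjusted p below 0.05. Neither the annotation release nor strand-specific counting is stated in the sources, but the lengths of 9 of the 10 Notch genes equal their merged exons in GENCODE M21, from which overlaps were taken. Coordinates were copied from that table of deposited values.

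What 1 read is worth was derived per library from the gene lengths, and 100% of values equalled a whole number of reads to within 0.05, which gave 14212164 to 16784241 reads on genes per library. Counting error alone is a lower bound on the spread. The labels gave groups and replicate numbers, and the study describes the replicates as biological. Of the values, log2(FPKM + 1) of genes with a mean of at least 0.5 FPKM was fitted by limma 3.58.1 (R 4.3.3) in two-sided tests with an intensity trend and no term but genotype, and p was adjusted by the Benjamini-Hochberg method over all 17180 genes. An exact permutation test was run for single genes. Tables and figures were made with Python 3.11.15, pandas 2.3.3, numpy 2.4.6, scipy 1.17.1 and matplotlib 3.10.9. The 10 genes, the other pathway genes and the marker lists were chosen with earlier results of these data known, and no list was tested as a set. Named beside the 10 genes are *Srsf1*, other pathway genes past the unadjusted limit, the highest and the lowest level of each role, the 3 genes closest to *Jag1* and to *Notch2*, and markers that touch a result. *Rbpj*, *Numb*, *Aph1a* and the other ligand and receptor genes were named after their values were seen. The alternatives were other pseudocounts, filters and scalings, a fit with no intensity trend, voom on the recovered reads, a block for the replicate number, and each library left out.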

Additional observations from a re-analysis of the deposited data

How the results depend on the processing

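Under the 9 other settings, all with 6 libraries, 0 of the 10 Notch genes tested passed the unadjusted limit (9 with a mean of at least 1 FPKM, which leaves out *Hey2*), and the median log2 fold change of those tested stayed between -0.11 and -0.084. With a library left out, 0 to 1 passed (*Jag2* without Ctrl 1, where 3.64% of all genes passed, and *Lfng* without Ctrl 3, where 6.85% did), and the median lay between -0.14 and -0.0029, the latter without cKO 3. The range of the other pathway genes called was 0 to 7. The 7, of which 4 were higher, came without cKO 2, where 14.5% of all genes passed. The number was 1, *Aph1b*, with no filter, with a mean of at least 1 FPKM and with the replicate block. Of all genes, 3.94%, 4.27% and 3.96% passed there. With the germ-cell covariate, chosen after seeing the data, 1 other pathway gene passed, *Neurl1a*, against 5.83% of all genes. Without Ctrl 1 and cKO 2, also chosen later, 6 other pathway genes passed, against 11.9% of all genes. Over all genes, 364 (without Ctrl 2) to 2493 (without cKO 2) were called with a library left out, 201 to 1457 of them higher and 163 to 1036 lower, against 761, 460 and 301 with all 6. With no filter they were 1331, 736 higher and 595 lower, with the covariate 608 were lower, and without Ctrl 1 and cKO 2 they were 2050, 1196 higher and 854 lower. The adjusted limit was passed by 4 genes without Ctrl 1 and by 1 without Ctrl 1 and cKO 2 (smallest adjusted p 0.0103 in limma), and by 0 in every other fit.

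Changes of sign came in log2 fold changes near 0, none of which passed the limit. *Hes1* was at -0.015 under quantile normalization. With a library left out, the changes ranged from -0.0915 (without cKO 1) to 0.0073 (without cKO 3) for *Notch1*, from -0.207 (without Ctrl 3) to 0.037 (without Ctrl 2) for *Notch3* and from -0.13 (without cKO 2) to 0.0735 (without cKO 3) for *Hes1*. They ranged from -0.19 (without cKO 2) to 0.089 (without cKO 3) for *Hey1*, from -0.0805 (without cKO 1) to 0.15 (without Ctrl 1) for *Hey2* and from -0.25 (without cKO 2) to 0.035 (without cKO 3) for *Heyl*. *Hey1* was at 0.017 and *Heyl* at 0.075 with the covariate, and *Jag1* was at 0.017 and *Hes1* at -0.11 without Ctrl 1 and cKO 2. The cause of these changes was not tested.

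The shared replicate numbers gave no sign of a pairing of the libraries. Libraries of the same number had correlations of -0.39, -0.03 and 0.12 between their deviations from the group means. Only cKO 3 correlated best with the library of its own number. Ctrl 1 correlated best with cKO 2 (0.35), and Ctrl 2 (0.16) and Ctrl 3 (0.29) with cKO 1. The deviations of the 3 libraries of a group depend on one another, so these correlations cannot exclude a pairing. With the replicate number as a block, 681 genes were called, 434 higher and 247 lower, 0 of the 10 Notch genes passed, and *Aph1c* lost its call while *Aph1b* kept it. Depth limited *Hey2* most, with 35 to 68 reads per library.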
